A study of Mus musculus with 16 samples.

Results

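The comparison was between the 5 mouse livers with the highest and the 5 with the lowest level of Fasn messenger RNA, which together were 10 of the 16 livers of the series. All 16 libraries were ranked by the FPKM of Fasn (fragments per kilobase of transcript and per unit of mapped fragments), a unit that corrects for gene length and library size. The groups were therefore set by a measured value and not by a treatment. Bulk RNA sequencing had been done on whole liver, 1 library per mouse, from male mice aged 8 weeks on standard chow that the labels give as fed. There were 8 Fgl1 LWT mice, which carried floxed Fgl1 alleles without CRE and are labelled WT, and 8 Fgl1 LKO littermates, which carried the same floxed alleles and CRE driven by the albumin promoter, active in hepatocytes. Controls and knockouts thus shared the floxed alleles, and the CRE transgene was present in the knockouts alone. The methods state fewer mice per genotype than the 8 libraries in the table, whereas the legend of the study's heatmap of these data gives 8. Mice are named here by genotype and replicate number (WT 4, LKO 1). The low group and the high group each held 2 WT and 3 LKO livers.

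Fasn encodes fatty acid synthase, the cytosolic enzyme that builds palmitate from acetyl-CoA and malonyl-CoA with NADPH as reductant. In liver this pathway, de novo lipogenesis, turns surplus carbohydrate into fatty acids after a meal. Its genes are known to be driven together by SREBP-1c (from Srebf1), which responds to insulin, by ChREBP (Mlxipl), which responds to sugar metabolites, and by the liver X receptor alpha (Nr1h3). Insulin and feeding raise them and fasting lowers them.

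Promoter sequences of Fasn and of 4 of the genes that were higher with it are shown, chosen because each holds a match to a short motif. Each is the stretch of 250 bases before the RefSeq transcription start, on build GRCm38.p6, written 5′ to 3′ on the strand of the gene. The expression values were made on build mm39, so these positions belong to the sequences only. Capitals mark matches on either strand to 8 motifs: the CCAAT box (CCAAT), the E-box (CACGTG), a looser pair of E-boxes (CANNTG, 5 bases, CANNTG), a first form of the sterol regulatory element (TCACNCCAC) and a second (ATCA, 2 bases, CCAC), the D-box (TTANNTAA) and direct repeats of AGGTCA with 4 bases or 1 base between. Fasn lies at chr11:120824548-120824797 (minus strand), Acly at chr11:100528001-100528250 (minus), Thrsp at chr7:97417551-97417800 (minus), Pgd at chr4:149166706-149166955 (minus) and Pdzk1ip1 at chr4:115088458-115088707 (plus).
Fasn: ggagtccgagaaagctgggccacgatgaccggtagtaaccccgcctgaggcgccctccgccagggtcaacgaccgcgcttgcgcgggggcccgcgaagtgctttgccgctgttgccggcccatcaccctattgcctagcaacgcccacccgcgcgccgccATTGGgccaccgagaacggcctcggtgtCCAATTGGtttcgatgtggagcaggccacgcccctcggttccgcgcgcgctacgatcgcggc
Acly: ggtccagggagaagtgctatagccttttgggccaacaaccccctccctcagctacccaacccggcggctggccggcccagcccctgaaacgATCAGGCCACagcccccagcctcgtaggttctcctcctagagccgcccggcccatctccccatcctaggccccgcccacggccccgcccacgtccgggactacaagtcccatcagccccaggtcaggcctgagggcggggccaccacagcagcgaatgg
Thrsp: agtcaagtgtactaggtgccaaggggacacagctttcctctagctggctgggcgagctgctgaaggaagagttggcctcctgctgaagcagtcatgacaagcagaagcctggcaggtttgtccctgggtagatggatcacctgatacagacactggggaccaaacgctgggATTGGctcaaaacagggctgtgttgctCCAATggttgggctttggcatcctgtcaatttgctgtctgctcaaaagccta
Pgd: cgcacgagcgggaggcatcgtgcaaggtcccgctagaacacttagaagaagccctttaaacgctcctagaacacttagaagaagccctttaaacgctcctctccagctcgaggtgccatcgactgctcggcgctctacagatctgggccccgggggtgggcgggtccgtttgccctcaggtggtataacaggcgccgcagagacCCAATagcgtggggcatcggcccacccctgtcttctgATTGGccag
Pdzk1ip1: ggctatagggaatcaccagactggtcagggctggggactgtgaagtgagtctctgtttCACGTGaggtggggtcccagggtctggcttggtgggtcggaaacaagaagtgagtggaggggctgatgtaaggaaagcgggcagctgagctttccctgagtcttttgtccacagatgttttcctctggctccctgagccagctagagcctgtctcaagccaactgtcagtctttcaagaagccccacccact
The Fasn stretch held 3 CCAAT matches, the last 2 of which overlap on opposite strands, and Thrsp and Pgd held 2 each. Acly held 1 match to the second form of the sterol regulatory element and Pdzk1ip1 held 1 E-box. Acacb, not shown, held 1 CCAAT match, and the stretches of Atg16l2, Chrna4 and a second start of Pgd held no match. Among the 7 genes past the threshold and higher that had a sequence, 3 (42.9%) held a CCAAT box, close to the 40.7% of tested genes. Among the 13 of 16 other de novo lipogenesis genes with a sequence in the table, 7 (53.8%) held a CCAAT box in at least 1 start, beside the 40.7% of the 10252 tested genes with a sequence. The E-box was in 2 of the 13 (15.4%) and in 9.72% of the tested genes, and the 2 forms of the sterol regulatory element were in 0 and 1 of the 13, beside 1.32% and 0.595%. None of the 13 held the looser pair of E-boxes, the D-box or either direct repeat, which were in 0.458%, 4.40%, 0% and 0.0488% of the tested genes. These matches are of letters and not of bound sites. Over all 32851 promoter stretches, 33.8% held CCAAT and 6.02% held CACGTG.

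Fasn FPKM in the high group was 292 in LKO 4, 168 in LKO 3, 159 in WT 7, 122.5 in WT 4 and 98.5 in LKO 1. In the low group it was 48.7 in LKO 7, 48.2 in WT 2, 45.4 in LKO 6, 40.9 in LKO 5 and 17.6 in WT 8. The 6 livers in neither group lay between 50.9 and 56.4, a spread of 1.11-fold. The lowest liver of the high group, at 98.5, was thus far from the next liver at 56.4, whereas the highest liver of the low group, at 48.7, was close to the next one at 50.9. These values chose the groups and were not tested. Below, values in the high group follow the order LKO 4, LKO 3, WT 7, WT 4, LKO 1 and those in the low group the order LKO 7, WT 2, LKO 6, LKO 5, WT 8.

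Genotype, which the ranking had not used, did not separate Fasn. Mean FPKM was 70.3 ± 46.2 in WT and 100 ± 88.3 in LKO livers (SD, n = 8 each), and an exact permutation test of the difference over all 12870 splits gave a two-sided p of 0.456. Without LKO 4 the difference of 30.0 FPKM shrank to 2.73. Fgl1 itself lay between 158 and 1331 FPKM in WT and between 13.2 and 89.99 in LKO livers, so no library went against its genotype label. In the high group Fgl1 was 15.4, 13.2, 1331, 248 and 51.0 FPKM and in the low group 36.2, 202, 71.2, 89.1 and 480. The fitted difference, −0.51 ± 0.61 (log2 scale, SE), did not pass (limma, adjusted p = 0.813).

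The libraries were similar in technical measures. Summed FPKM over all genes ranged from 673153 to 786188 in the 16 libraries, and between the groups it differed with an exact p of 0.183. The number of genes above 0 was 14284 ± 106 in the high and 14172 ± 44.4 in the low group (SD, n = 5 each, exact permutation p = 0.0873). No 2 libraries held identical values. The table gives rounded FPKM and no read totals, so the depth behind each value is unknown. The labels give no batch. Mouse numbers were divided here into 4 runs (36 to 38, 48 to 55, 60 to 64 and 69 to 72), which no label gives. As divided, 3 of the 5 high livers came from the run from 48 to 55, which held no low liver. LKO 3, a high liver with number 55, was placed in that run but lies as far from 50 as from 60.

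Across the 12769 genes other than Fasn with a mean of at least 0.1 FPKM, 9 passed an adjusted p of 0.05 between the groups, 8 higher and 1 lower (0.0705% of the genes tested, 0.0627% higher and 0.00783% lower). Fasn, which set the groups, was ranked in this adjustment, and with the adjustment over the 12769 genes without it, added after the data were seen, 7 genes passed, 6 higher and 1 lower, since Thrsp and Pgd went to an adjusted p of 0.0518 (limma). Differences are of log2(FPKM + 1) with genotype as a covariate in limma, p-values were adjusted by the Benjamini-Hochberg method over all genes, and on this scale low genes show a smaller change than their FPKM ratio. All p-values measure the spread between these mice. Of the 9 genes, 3 belong to de novo lipogenesis (Acly, Acacb, Thrsp), 1 supplies NADPH (Pgd), and Chrna4, Atg16l2, Pdzk1ip1 and D630039A03Rik were in no list used here. In every one of the 9 the 5 high and the 5 low livers did not overlap, which held for 1.33% of all genes in the higher and 0.423% in the lower direction. The count moved with single libraries. Leaving out WT 4, WT 8, LKO 6 or LKO 7 gave 3 genes, all among the 9. Leaving out WT 2, WT 7, LKO 3 or LKO 4 gave 4 genes, 3 of them among the 9, and leaving out LKO 5 gave 4, all among the 9. Leaving out LKO 1, the high liver with the least Fasn, gave 17, with 8 of the 9. The 4 highest against the 4 lowest livers gave 10 genes and the 3 highest against the 3 lowest gave 9, or 10 and 1 with the adjustment without Fasn.

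**Figure D1:**
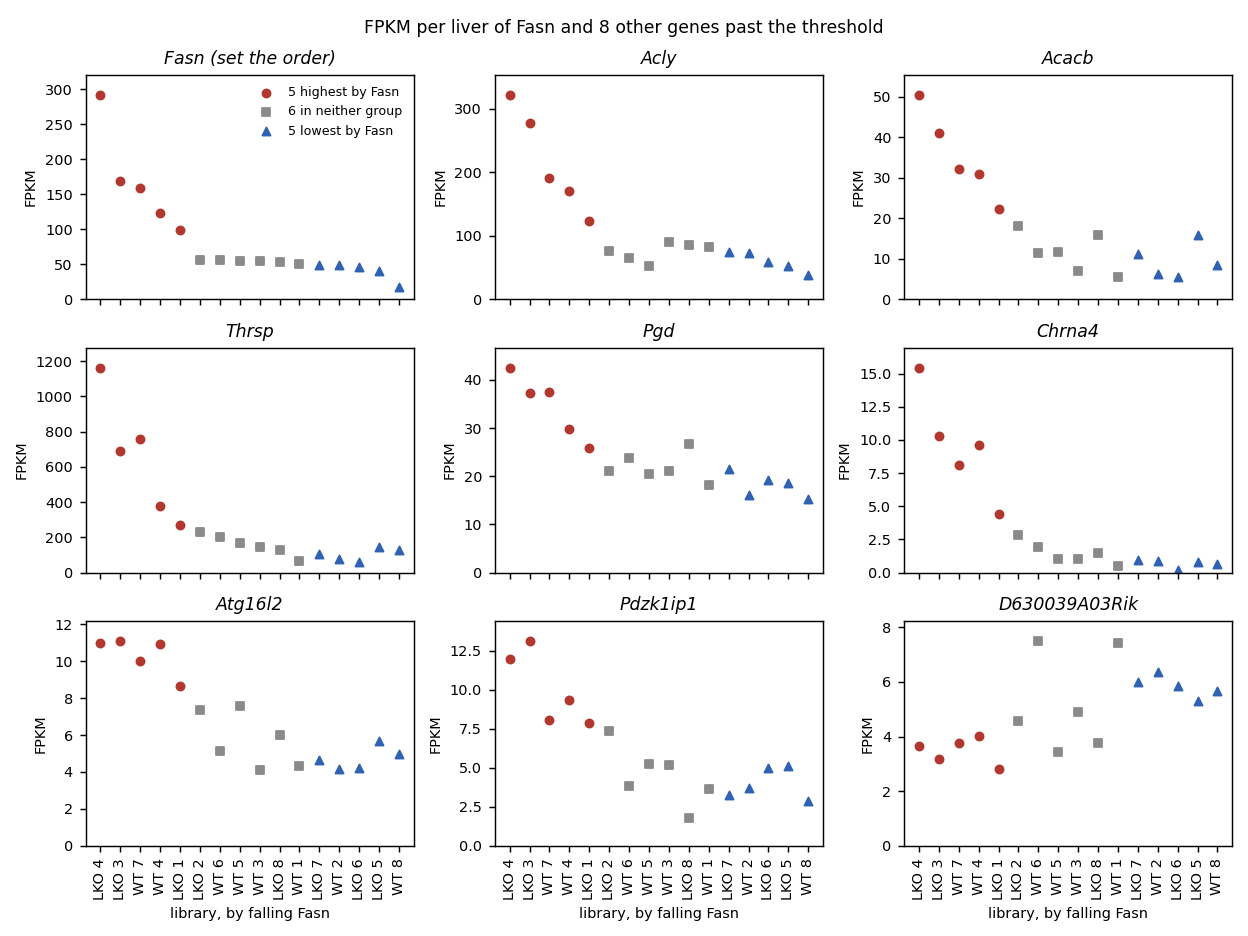
FPKM of Fasn and of 8 of the 9 other genes past the threshold, 1 panel per gene, each point 1 liver, ordered from the highest to the lowest Fasn along the horizontal axis, with linear vertical axes from 0. Red circles are the 5 highest, grey squares the 6 livers in neither group and blue triangles the 5 lowest livers. Red and blue points do not overlap in any panel, and for Acly, Acacb, Thrsp, Chrna4, Atg16l2 and Pdzk1ip1 the grey points also lie below all red ones.

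Acly encodes ATP citrate lyase, which makes cytosolic acetyl-CoA from citrate. It was at 322, 278, 192, 171 and 123 FPKM in the high and at 74.1, 72.2, 58.5, 53.0 and 37.9 in the low livers. Its level fell in the same order of mice as Fasn in both groups. The difference was 1.81 ± 0.25 (log2 scale, SE, adjusted p = 0.0466 by limma). The gene lies on GRCm39 chromosome 11 from 100367165 to 100440756. It overlaps Odad4 on the opposite strand and the noncoding genes Gm74363 and Mir7116 on its own strand. The library kit kept strand, but whether counting used it is not given in the sources used here.

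Acacb encodes acetyl-CoA carboxylase 2, which makes malonyl-CoA at the mitochondrial surface, where it limits fatty acid entry. It was at 50.4, 41.1, 32.1, 30.9 and 22.3 FPKM in the high and 11.2, 6.30, 5.53, 15.8 and 8.47 in the low livers. The low livers were not ordered as by Fasn, with LKO 5 the highest of them. The difference was 1.84 ± 0.26 (adjusted p = 0.0466 by limma). Acacb spans 114284307 to 114388822 on GRCm39 chromosome 5 and overlaps the pseudogene Gm13784 and the noncoding gene Gm71510 on the opposite strand.

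Thrsp encodes Spot 14, a small protein that follows and promotes lipogenesis. It showed the largest difference of the lipogenic genes in log2(FPKM + 1), 2.55 ± 0.38 (adjusted p = 0.0466 by limma, or 0.0518 with the adjustment without Fasn). By the ratio of mean FPKM, Pnpla3, which rests on low values, changed more, 13.0 against 6.38 for Thrsp. Its FPKM was 1159.8, 690.0, 758, 376 and 271 in the high and 105.1, 75.7, 58.8, 143 and 127 in the low livers. WT 8, with the least Fasn of all, was not the lowest in Thrsp. The gene occupies GRCm39 chromosome 7 from 97062139 to 97066937.

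Pgd encodes 6-phosphogluconate dehydrogenase, an enzyme of the pentose phosphate pathway that yields NADPH. It stood at 42.4, 37.4, 37.5, 29.7 and 26.0 FPKM in the high and at 21.5, 16.2, 19.2, 18.7 and 15.4 in the low livers. The gap between the groups was narrow, from 21.5 to 26.0, and 1 liver in neither group, LKO 8 at 26.7, lay within the high range. The difference was 0.88 ± 0.13 (adjusted p = 0.0466 by limma, or 0.0518 with the adjustment without Fasn). Pgd lies at 149233246 to 149251228 on GRCm39 chromosome 4.

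Chrna4, a subunit of the nicotinic acetylcholine receptor best known from neurons, showed the largest difference among the 9 genes, 2.59 ± 0.26 (adjusted p = 0.00477 by limma). Its FPKM was 15.4, 10.3, 8.13, 9.64 and 4.39 in the high but 0.92, 0.84, 0.17, 0.77 and 0.66 in the low livers. Mean FPKM was 9.57 ± 3.98 against 0.672 ± 0.296 (SD, n = 5 each), 14.2 times as high. The livers in neither group lay between 0.51 and 2.85 FPKM, the highest being LKO 2, which was next to the high group in Fasn as well. The gene lies on GRCm39 chromosome 2 from 180660173 to 180685339 and overlaps the noncoding gene Gm74971 on the same strand.

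Atg16l2 encodes a relative of the autophagy protein ATG16L1. It was at 11.01, 11.07, 10.02, 10.91 and 8.65 FPKM in the high and at 4.66, 4.15, 4.21, 5.66 and 4.98 in the low livers. Within each group it varied little, and the difference was 0.98 ± 0.10 (adjusted p = 0.00572 by limma). Atg16l2 spans 100912241 to 100951495 on GRCm39 chromosome 7 and overlaps Fchsd2 on the opposite strand. Like Chrna4, it stayed past the threshold when any 1 library was left out.

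Pdzk1ip1 encodes a small membrane protein that binds PDZ domain proteins. High livers held 12.0, 13.1, 8.03, 9.34 and 7.84 FPKM and low livers 3.25, 3.73, 5.00, 5.11 and 2.87, a difference of 1.14 ± 0.15 (adjusted p = 0.0365 by limma). D630039A03Rik, a gene without an assigned function, was the one gene past the threshold that was lower, at 3.66, 3.19, 3.75, 4.01 and 2.82 FPKM against 5.99, 6.37, 5.84, 5.29 and 5.68. Its fitted difference was −0.61 ± 0.09 (adjusted p = 0.0466 by limma). Livers in neither group spread from 3.45 FPKM, within the high group, to 7.48, above the low group. D630039A03Rik overlaps the noncoding gene Gm42293 on the opposite strand.

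De novo lipogenesis genes were the list most unlike all genes. Of 17 listed genes 16 remain without Fasn, all 16 were in the table and passed the filter, and 3 passed the adjusted threshold, all higher, or 2 (Acly, Acacb) with the adjustment without Fasn. With 1 library left out none of the 16 passed in 8 of 10 fits, 1 passed without LKO 5 and 6 passed without LKO 1. All 16 had a difference above 0, as had 57.4% of all genes, and an unadjusted p under 0.05, beside 7.57% of all genes that were higher at that level. Their median difference was 1.23 on the log2 scale, beside 0.02 over all 12769 genes. Every high liver was above every low one for 10 of the 16, beside 1.33% of all genes. Part of this list is known to be regulated together with Fasn, and the list was chosen with earlier results in view, so the count describes these livers.

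Among enzymes that feed carbon to Fasn, Acss2, which makes acetyl-CoA from acetate, missed the threshold at 1.51 ± 0.25 (adjusted p = 0.0968 by limma), with 142 to 404 FPKM in the high and 61.4 to 103 in the low livers. Acaca, the carboxylase that makes the malonyl-CoA used by fatty acid synthase, was at 19.7 to 36.0 FPKM against 8.51 to 17.4, with a difference of 1.07 ± 0.20 (adjusted p = 0.150). Slc25a1, the mitochondrial citrate carrier, differed by 0.31 ± 0.11 and its groups overlapped, at 129 to 174 against 93.8 to 162 FPKM. Aacs, which activates acetoacetate, was at 20.01 to 50.6 against 4.30 to 21.9 FPKM (1.32 ± 0.31, adjusted p = 0.257), with overlap as well. Me1, the cytosolic malic enzyme that yields NADPH, was at 67.8 to 255 against 39.9 to 71.2 FPKM (1.08 ± 0.33, adjusted p = 0.353). The 3 carbon suppliers Acly, Acss2 and Acaca thus separated the groups and Slc25a1, Aacs and Me1 did not.

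Among enzymes that modify the product, Elovl6, which lengthens palmitate, was at 67.2, 35.8, 28.8, 25.1 and, in LKO 1, 20 FPKM in the high and 6.52 to 12.9 in the low livers (1.64 ± 0.29, adjusted p = 0.117 by limma). Scd1, the desaturase that makes oleate, was the most abundant member, at 1868 to 4259 against 338 to 1467 FPKM (1.48 ± 0.40, adjusted p = 0.313). In the low group Scd1 in LKO 6, at 338 FPKM, stood far below the next liver at 1254. Elovl5 (1.15 ± 0.23) also separated the groups, at 179 to 362 against 75.7 to 136 FPKM. Fads1 and Fads2, desaturases of polyunsaturated fatty acids, differed by 0.32 ± 0.09 and 0.35 ± 0.12, and Scd2, at 1.23 to 1.84 against 0.77 to 1.49 FPKM, by 0.29 ± 0.12. Pnpla3, a lipid droplet protein, rested on low values, 1.95 to 9.04 against 0.14 to 0.67 FPKM (1.90 ± 0.33, adjusted p = 0.111), and Mid1ip1, a relative of Spot 14, differed by 0.62 ± 0.23 with overlap. None of these 8 passed the adjusted threshold.

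**Figure D2:**
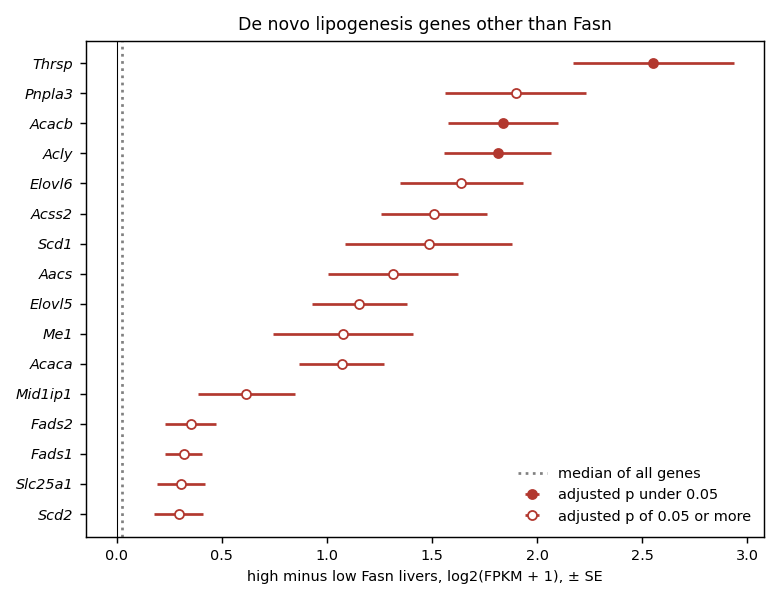
Difference between the high and low Fasn livers in log2(FPKM + 1), with its standard error, for the 16 de novo lipogenesis genes other than Fasn, sorted by size (5 livers a group). Filled points passed an adjusted p of 0.05 with Fasn ranked in the adjustment, open points did not, the solid line is 0 and the dotted line the median of all genes, 0.02. All points lie to the right of 0, from 0.29 for Scd2 to 2.55 for Thrsp.

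Of 23 regulators of these genes none passed the adjusted threshold between the groups, and the median was 0.11. An unadjusted p under 0.05 was found for 5 (21.7%), all higher, beside 7.57% of all genes. Srebf1 was at 114, 50.1, 82.8, 75.6 and 50.2 FPKM in the high and at 21.0, 73.9, 55.3, 32.6 and 25.4 in the low livers, so that WT 2 and LKO 6 lay within the high range (0.91 ± 0.34, adjusted p = 0.411 by limma). Over all 16 livers its slope on log2 Fasn, 0.57, passed the threshold (limma, adjusted p = 0.0210), the only regulator of the 23 to do so. This slope uses the same Fasn values that set the groups. For the 5 high livers against the other 11, the Srebf1 difference of 0.92 did not pass (limma, adjusted p = 0.196). Scap, which escorts SREBPs, had the smallest p of the list (0.55 ± 0.13, adjusted p = 0.256), with 46.8 to 71.7 against 32.2 to 46.6 FPKM. Mlxipl was at 112 ± 9.88 against 92.2 ± 15.5 FPKM (SD, n = 5 each, 0.29 ± 0.11, adjusted p = 0.429). Nr1h3 was at 50.8 ± 3.76 against 50.5 ± 6.45 FPKM, and Srebf2, the sterol factor, at 15.95 ± 2.23 against 14.7 ± 6.88 FPKM (adjusted p = 0.973 and 0.768), and the sign of both differences changed under other settings. Nr0b2, a corepressor, was at 46.1 ± 16.1 against 27.3 ± 9.22 FPKM (0.74 ± 0.25, adjusted p = 0.379).

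NADPH supply, glycolysis and sterol synthesis held more genes with small unadjusted p than the 7.57% over all genes. Of 9 NADPH genes 1 (Pgd) passed the adjusted threshold, though not with the adjustment without Fasn, and 6 (66.7%) had an unadjusted p under 0.05, with a median of 0.43. Among the 6 was Me1, which is also counted in the lipogenic list above. An unadjusted p under 0.05 was found for 8 (38.1%) of 21 genes of glucose uptake and glycolysis, with a median of 0.26. Pklr, liver pyruvate kinase, was at 303, 270, 171, 179 and 106 FPKM in the high and 78.6, 98.2, 58.7, 69.8 and 90.2 in the low livers (1.30 ± 0.26, adjusted p = 0.185 by limma). Its groups did not overlap. Khk, which phosphorylates fructose, was at 340.3 ± 79.2 against 224 ± 28.3 FPKM (SD, n = 5 each, 0.58 ± 0.16, adjusted p = 0.326).

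Of 27 genes of cholesterol synthesis and uptake 12 (44.4%) were higher with an unadjusted p under 0.05 and 0 passed the adjusted threshold, with a median of 0.56. Fdps, which makes farnesyl diphosphate, was at 436 ± 112 against 237 ± 130 FPKM (SD, n = 5 each, 1.00 ± 0.23, adjusted p = 0.257 by limma), and Sc5d, a late enzyme of the path, at 330.3 ± 71.1 against 199 ± 37.0 FPKM (0.72 ± 0.18, adjusted p = 0.295). For this list the median was 0.95 between the WT and 0.22 between the LKO livers of the groups, whereas for de novo lipogenesis it was 1.03 and 1.34. An interaction with genotype (limma) passed the adjusted threshold in 0 of 12769 genes and had an unadjusted p under 0.05 in 634, so no difference between the genotypes was shown.

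Triglyceride synthesis and lipid droplet genes were close to the background in their median. Of 26 kept, 5 (19.2%) were higher and 1 (3.85%) lower at an unadjusted p under 0.05, beside 7.57% and 2.69% of all genes. The median was 0.11. Gpam, the mitochondrial enzyme that adds the first acyl chain to glycerol 3-phosphate, was at 153, 97.3, 90.6, 73.0 and 57.2 FPKM in the high and 35.8, 48.9, 33.7, 33.1 and 27.0 in the low livers (1.32 ± 0.24, adjusted p = 0.117 by limma). Hsd17b13, a lipid droplet protein that is also a periportal gene here, was at 231 ± 24.3 against 292 ± 56.1 FPKM (−0.32 ± 0.10, adjusted p = 0.363). Of 13 liver X receptor targets 5 (38.5%) were higher at that level, beside 7.57% of all genes, with a median of 0.18. Among the 5 were Scd1 and Srebf1, which are also counted in lists above. The smallest p belonged to Scd1 and to Pltp, a phospholipid transfer protein (0.74 ± 0.22, adjusted p = 0.348 by limma).

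Lists of catabolic and glucose-producing genes were not apart from all genes. Of 31 genes of fatty acid oxidation and ketogenesis 2 (6.45%) had an unadjusted p under 0.05, both higher, beside 7.57% of all genes. Fabp1, a fatty acid binding protein, was among them at 0.50 ± 0.22, and the median of the list was −0.02. Of 18 gluconeogenic and FOXO1 target genes 2 (11.1%) had such a p, both higher (Foxo3 at 0.33 ± 0.12 and Trib1 at 0.44 ± 0.18). The median was 0.17. Pck1, the rate-limiting enzyme of gluconeogenesis, was at 734, 833, 203, 1083 and 1282.5 FPKM in the high and 939, 1305, 726, 977 and 939 in the low livers. One high liver, WT 7, was below all others, and the difference was −0.45 ± 0.41 (adjusted p = 0.739 by limma), or 0.04 without WT 7. Apolipoproteins (18 genes, median 0.00) and the urea cycle and amino acid catabolism (29 genes, median 0.04) had 0 genes at an unadjusted p under 0.05, the smallest p being those of Apoa4 (−0.77 ± 0.36), Apoc2 (−0.24 ± 0.13), Aass (−0.26 ± 0.12) and Ddah1 (−0.44 ± 0.25).

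Clock and glucocorticoid genes were examined because lipogenesis follows the time of day and hormones. Of 19 clock genes 2 (10.5%) were higher at an unadjusted p under 0.05, beside 7.57% of all genes. Per2 was among them at 0.49 ± 0.15, and the median of the list was 0.04. Dbp, a strongly rhythmic gene, was at 0.50, 4.84, 2.43, 0.37 and 0.37 FPKM in the high and 2.95, 0.86, 1.18, 0.48 and 7.44 in the low livers, so both groups held high and low values. Arntl (Bmal1) was at 12.4 ± 1.07 against 11.5 ± 1.67 FPKM (SD, n = 5 each). Of 14 glucocorticoid-induced genes 0 had an unadjusted p under 0.05, with Klf9 at −0.33 ± 0.18 and Mt2 at −1.72 ± 1.08, and the median was −0.12.

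**Figure D3:**
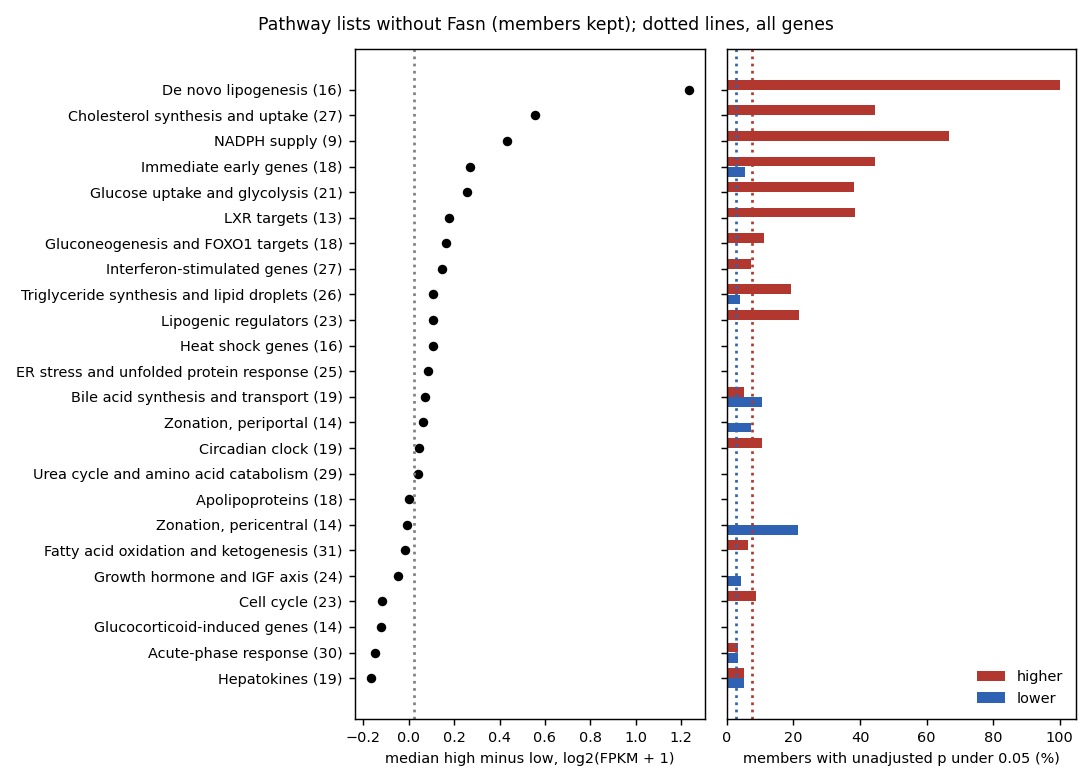
Left, median difference between high and low Fasn livers in log2(FPKM + 1) for the 24 pathway lists without Fasn, with the number of genes kept in brackets. Right, percent of each list with an unadjusted p under 0.05 in the higher (red) and lower (blue) direction, with dotted lines for all genes (7.57% and 2.69%). De novo lipogenesis stands at 1.23 and 100%, and cholesterol synthesis and uptake (0.56) and NADPH supply (0.43) follow.

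Of 30 acute-phase genes 26 had a difference below 0 and 4 above, beside 57.4% of all genes above 0. The list's median was −1.02 in run 60 to 64 and 0.64 in run 69 to 72, and 0.59 between WT and −0.70 between LKO livers. Saa1, serum amyloid A1, was at 252.3, 68.4, 16268, 124 and 1827 FPKM in the high and 181, 71.4, 3016, 7669 and 1353.5 in the low livers (−0.53 ± 1.64, adjusted p = 0.939 by limma). Both groups thus spanned low and high levels. Of the list 1 was higher (Cebpd at 0.43 ± 0.18) and 1 lower (Crp at −0.24 ± 0.10) at an unadjusted p under 0.05, and the median was −0.15. With Saa1 as a further covariate 5 genes passed the threshold.

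Immediate early genes, which respond within minutes to a stimulus, included Egr1, a transcription factor that separated 4 of the 5 high livers from all low ones. Egr1 was at 1.40, 25.7, 96.8, 42.0 and 66.2 FPKM in the high and 2.09, 1.74, 1.13, 2.74 and 5.24 in the low livers. LKO 4, the liver with the most Fasn, had Egr1 at the level of the low group, and the difference was 3.08 ± 0.75 (adjusted p = 0.295 by limma). Zfp36, which destabilises messenger RNA, was at 54.5, 89.3, 106, 52.3 and 68.8 against 30.9, 40.4, 33.6, 47.2 and 46.1 FPKM (0.85 ± 0.20, adjusted p = 0.257), without overlap. Of 18 such genes 8 (44.4%) were higher and 1 (5.56%) lower at an unadjusted p under 0.05, beside 7.57% and 2.69% of all genes. Their median was 0.27. With the mean of these genes as a further covariate 3 genes passed the threshold and the median of the lipogenic genes was 1.44.

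Genes of the growth hormone axis and of the pericentral zone included single members with lower values in the high livers. Mup20, a major urinary protein driven by male growth hormone pulses, was at 7555, 6468, 2322, 4125 and 5703 FPKM in the high and 8692, 7950.0, 7805, 11387 and 10931 in the low livers. Its groups did not overlap (−0.93 ± 0.25, adjusted p = 0.318 by limma). Socs2, a growth hormone target, was at 1.81, 1.44, 1.75, 2.40 and 11.02 against 22.9, 5.14, 2.51, 16.5 and 4.12 FPKM (−1.18 ± 0.54). The median over 24 genes of this list was −0.05. Of 14 pericentral genes 3 were lower at an unadjusted p under 0.05, beside 2.69% of all genes, including Tbx3 (−0.71 ± 0.20, adjusted p = 0.321) and Cyp2e1 (−0.48 ± 0.15, adjusted p = 0.366), and the median was −0.01. Of 14 periportal genes 1 was lower (Hsd17b13), and Ass1 was at 3035 ± 726 against 2579 ± 512 FPKM (SD, n = 5 each).

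The remaining lists had at most 3 genes at an unadjusted p under 0.05 and none past the adjusted threshold. Hepatokines had a median of −0.17, with Gdf15 at 0.78 ± 0.29 and Fetub at −0.18 ± 0.08. Bile acid genes had a median of 0.07, with Nr0b2 again and the uptake carrier Slco1a4 (−0.64 ± 0.26). Interferon-stimulated genes had a median of 0.15 (Psmb9 at 0.44 ± 0.15, Oasl2 at 0.31 ± 0.13) and cell cycle genes −0.12 (Mcm3 at 0.24 ± 0.09, Mcm2 at 0.26 ± 0.10). Heat shock genes (median 0.11) and genes of endoplasmic reticulum stress (median 0.08) had 0 at that level, with Cryab at 0.34 ± 0.18, Hspb8 at −0.23 ± 0.14, Edem1 at 0.20 ± 0.14 and Ddit3 at 0.24 ± 0.18.

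Sums of markers of other liver cells were also compared, and in bulk tissue fewer cells of a type and less RNA per cell cannot be told apart. The summed FPKM of 11 Kupffer cell markers was 229 to 300.3 in the high and 130 to 273 in the low livers (exact permutation p = 0.0317, adjusted p over 14 library properties 0.167). All 11 Kupffer markers had a difference above 0, beside 57.4% of all genes. Of them 8 (72.7%) were higher at an unadjusted p under 0.05, beside 7.57% of all genes. The most abundant was C1qc at 44.1 to 61.5 against 25.8 to 55.5 FPKM. In the high liver of both runs 60 to 64 and 69 to 72, 7 of the 11 were higher, beside 30.2% of all genes. Their medians in these runs were 0.30 and 0.07, beside 0.49 between the groups. Stellate cell markers summed to 86.3 to 139 against 56.7 to 102.5 FPKM (p = 0.0476 by the exact permutation test), with all 10 above 0 and Dcn at 0.42 ± 0.19. Of these 10, 3 were higher in the high liver of both runs, with medians of 0.33 and −0.05, and all 10 in both genotypes. Sinusoidal endothelial markers summed to 55.7 to 155 against 40.0 to 106 FPKM (p = 0.111 by the exact permutation test), with all 9 above 0 and Clec4g at 0.49 ± 0.26. Of these 9, 0 were higher in the high liver of both runs, with medians of 0.78 and −0.21, and 6 were higher in both genotypes. The medians were 0.02 between WT and 0.88 between LKO livers. Each run contrast rests on 1 high liver. The sum of cholangiocyte markers was the other way, at 31.8 to 71.3 against 56.4 to 80.3 FPKM (exact permutation p = 0.0397, adjusted 0.167). It followed Spp1 (−0.72 ± 0.22). Mean Spp1 was 33.2 of 44.8 FPKM in the high and 52.4 of 64.7 in the low livers. Of the 6 markers kept, 3 had a difference above 0 and 3 below, with a median of −0.05. None of the 14 properties passed after adjustment, and 0.00794 is the smallest p that 5 against 5 allows.

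Hepatocyte marker sums overlapped, at 65515 to 80639 against 58282 to 86185 FPKM and Alb at 41666 ± 4891 against 40925 ± 8093 FPKM (SD, n = 5 each). Sums for monocytes and neutrophils (4.67 to 29.5 against 3.13 to 18.9 FPKM, with S100a8 highest), T and B cells (3.48 to 5.81 against 2.83 to 4.48, Cd4 highest), erythroid cells (414 to 1108 against 368 to 1045, Hba-a1 highest), pancreatic acinar cells (11.4 to 17.0 against 13.1 to 20.3, Cela1 highest) and skeletal muscle (0.45 to 1.26 against 0.15 to 0.94, Mylpf highest) overlapped. Adipocyte markers summed to 147 to 185 against 94.1 to 163 FPKM (exact permutation p = 0.0238, adjusted 0.167), which was almost all Adipor2, a receptor that hepatocytes express, while the defining markers Adipoq and Plin1 were under the filter and Lep was not analysed here. With the mean of the Kupffer cell markers as a further covariate 2 genes passed the threshold in the fit across all genes and the median of the lipogenic genes was 1.45. The part of other cells in the differences was not tested beyond this.

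**Figure D4:**
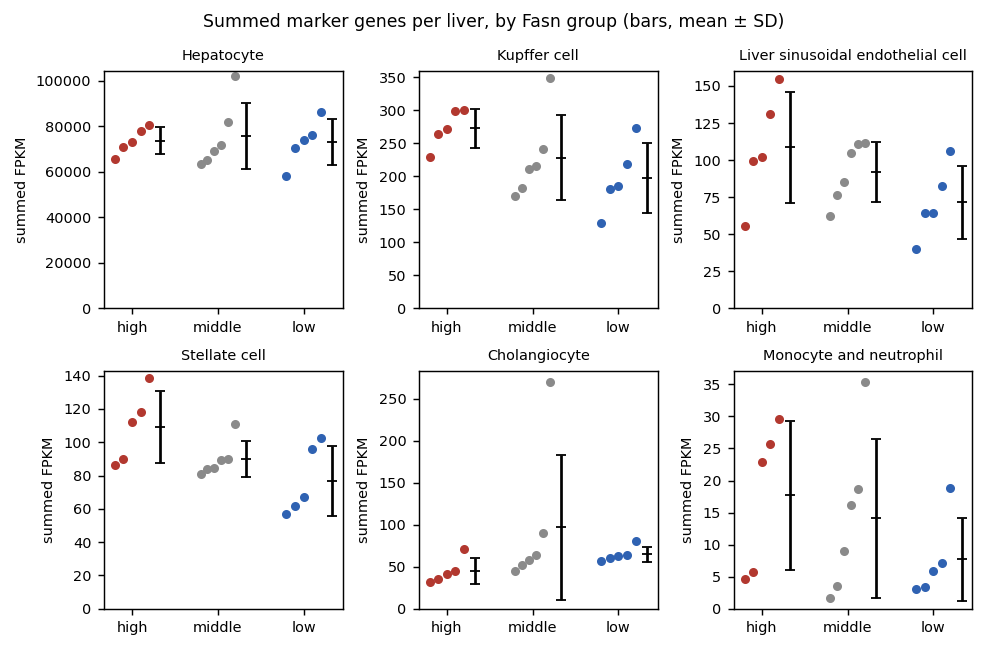
Summed FPKM of the marker genes of 6 cell types in each liver, with livers grouped by Fasn (5 high, 6 in neither group, 5 low) and bars for the mean and SD. Each point is 1 liver and each axis starts at 0. Hepatocyte sums overlap throughout, whereas the means of Kupffer and stellate cell sums are higher and that of cholangiocyte sums lower in the high group than in the low group.

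The lipogenic difference was present within the runs of mouse numbers and within each genotype. Run 60 to 64 held 1 high liver (LKO 4) and 2 low ones (LKO 5, LKO 6), and run 69 to 72 held 1 high (WT 7) and 2 low ones (LKO 7, WT 8). All 16 lipogenic genes were higher in the high liver of both runs, beside 30.2% of all genes, with medians of 1.80 and 1.31 on the log2 scale. These contrasts rest on 1 high liver each and have no test. Between WT livers the median was 1.03 and between LKO livers 1.34, and all 16 were higher in both genotypes, beside 33.8% of all genes. With the run as a term in place of genotype 0 genes passed the adjusted threshold and 731 of 12769 had an unadjusted p under 0.05, while the median of the lipogenic genes was 1.47. With the runs divided as here, run and group overlap in large part. Run 48 to 55 held 3 high livers and no low one, and run 36 to 38 held 1 low liver and no high one.

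The 6 livers in neither group varied too little in Fasn, by 1.11-fold, to follow it there. Of the 9 genes past the threshold 8 had a slope on Fasn within these 6 livers of the same sign as their difference, as did 11 of the 16 lipogenic genes and 52.7% of all genes. For 9 of the 16 lipogenic genes all 6 lay below every high liver, which held for 0.697% of all genes. Against these 6 and the 5 low livers together, a comparison added after the data were seen, the 5 high livers differed in 44 genes, 43 higher and 1 lower (0.337% and 0.00783% of the genes tested), of which 8 were lipogenic genes, including Acly at 1.60 (adjusted p = 0.00433 by limma) and Acaca at 0.95 (adjusted p = 0.00902).

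**Figure D5:**
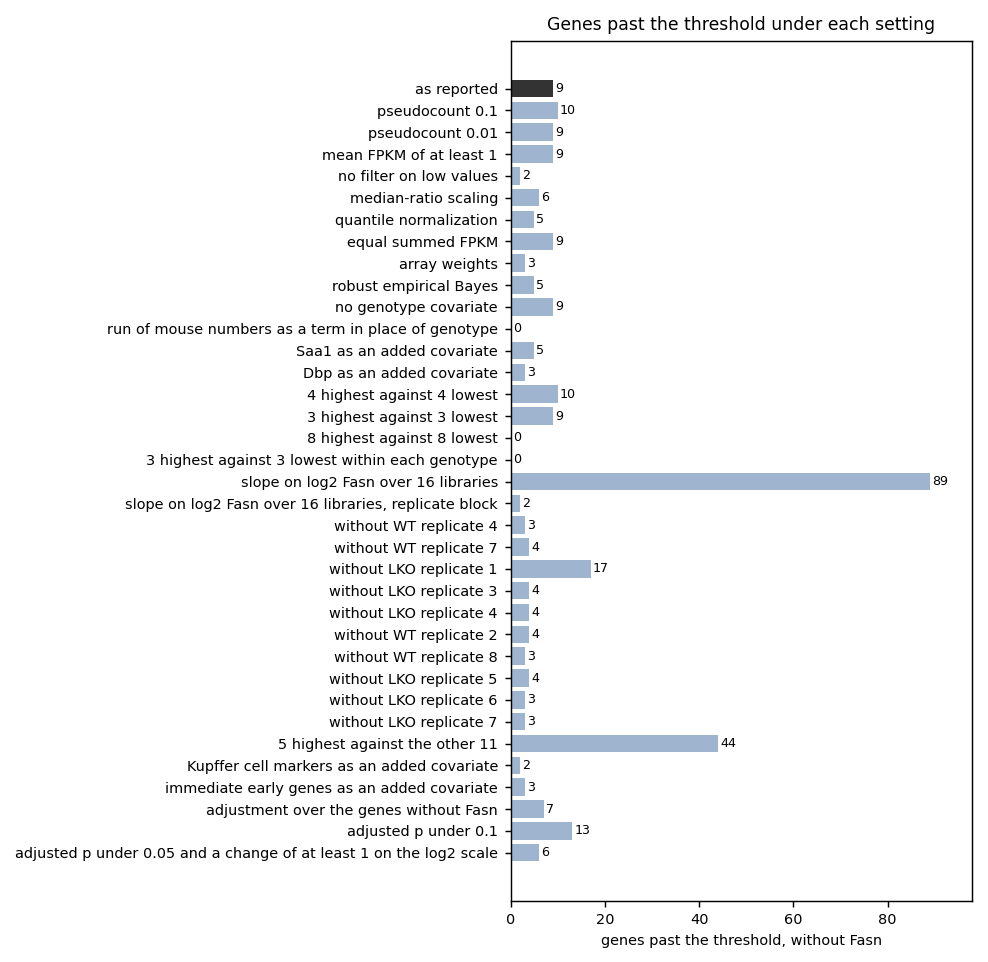
Number of genes other than Fasn past the threshold in the comparison as reported (dark bar) and under each other setting (light bars), on a linear axis from 0. The count is 9 as reported, between 3 and 17 when 1 library is left out, 0 with the number run in place of genotype or with 8 against 8 livers, and 89 for a slope on Fasn over all 16 livers.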

How the data were processed

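Liver RNA of 16 mice was sequenced by the submitters as paired reads on a DNBSEQ platform, and reads were aligned with HISAT and Bowtie2 to mm39, per the labels' processing notes and the methods (versions not given in the sources used here). The values are FPKM per gene and library as the authors deposited them, with decimal commas, from a strand-specific mRNA library kit, and whether counting used strand is not given in those sources. Of 17003 genes, 864 were at 0 in every library. A gene entered the fit if it averaged 0.1 FPKM or more across all 16 livers (12770 with Fasn, which stayed in the fit and its adjustment). The 5 libraries with the highest and the 5 with the lowest Fasn were compared in log2(FPKM + 1) by limma 3.58.1 (R 4.3.3; trended empirical Bayes, genotype as covariate, two-sided). Calls used Benjamini-Hochberg adjusted p-values under 0.05. Summed marker lists and Fasn by genotype were compared by exact permutation tests. Genes named were Fgl1, all lipogenic genes, list members past the threshold or else the 2 with the smallest p, all genes past the threshold, Srebf1, Srebf2, Mlxipl, Nr1h3, Dbp, Bmal1, Saa1, Pck1 and the most abundant marker of each cell type. Of the genes so chosen, 3 are not reported here. The livers compared, lists, rules and tests were chosen with earlier results of these data known. The fit was tested on simulated data with known changes. Promoters came from RefSeq (GRCm38.p6) and gene positions from GENCODE on GRCm39. A total of 32 planned and 4 added alternatives were run, among them other pseudocounts (0.1 and 0.01), filters, scalings, covariates and group sizes, and each library left out in turn. Figures were drawn with matplotlib 3.10.9.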

Additional observations from a re-analysis of the deposited data

Results flagged for a closer look

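In 166 sets of 5 livers, the high and the low group of 83 named genes, the highest or lowest liver stood far from the others in 7, beside 8.3 that chance would give at about 1 in 20. Among the low livers LKO 6 had Scd1 at 337.8 FPKM, next to 1253.51, and Fabp1 at 2691.36 FPKM, next to 4480.44. LKO 7 had Oasl2 at 1.79 FPKM, above the next at 1.17. Among the high livers LKO 1 had Socs2 at 11.02 FPKM, next to 2.40, and Edem1 at 47.66, next to 40.53. WT 4 had Srebf2 at 12.11 FPKM, below the next at 16.03, and LKO 4 had Hba-a1, a globin gene, at 900.47 FPKM, next to 392.58. The causes were not tested.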

How the results depend on the processing

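The 9 genes past the threshold kept their direction in 34 of 34 alternatives. These reused the livers as ordered by Fasn, so they are not independent of the comparison. The adjustment without Fasn, among the 34, leaves the differences unchanged and could not turn a direction. The count of genes past the threshold did not hold. It was 2 (0 lipogenic genes) with no filter on low values, 5 (0) with quantile normalization, 6 (1) with median-ratio scaling, 3 (0) with array weights, 5 (0) with robust empirical Bayes, 5 (1) with Saa1 and 3 (0) with Dbp as covariate, and 4 (0) without run 36 to 38. Of that run only WT 2 was among the livers compared, so this fit is the same as leaving out WT 2. Both are counted among the 34. The count was also taken under settings that changed the groups or the model. That count was 0 (0) with the number run as a term (731 genes at an unadjusted p under 0.05). It was 0 (0) for 8 against 8 (1245 genes, lipogenic median 0.82) and 0 (0) for 3 against 3 within each genotype (1298 genes). Of settings added after the data were seen, 5 against the other 11 gave 44 (8), Kupffer markers 2 (0), immediate early genes 3 (0) and the adjustment without Fasn 7 (2). With that adjustment a pseudocount of 0.01 gave 4 (0) in place of 9 (3), and the slope 87 in place of 89. A slope over 16 livers gave 89 (10), and 2 (1) with the replicate number as a block. Shared numbers did not pair the mice (3 of 8 pairs correlated over 0.1, from −0.16 to 0.45). Leaving out 1 library gave 3 to 17 genes (0 to 6 lipogenic genes, median 1.04 to 1.36). Marker sums that turned sign when 1 library was left out ranged from −3030.6 to 3945.3 FPKM for hepatocytes, −204.2 to 0.76 for erythroid and −1.42 to 0.38 for acinar cells. Named genes not past the threshold that turned sign (log2 scale) were, with the run term, Fgl1 0.51, Slco1a4 0.0072, Nr1h3 −0.045, Saa1 0.39, Alb −0.0025 and Hba-a1 0.31. With 8 against 8 they were Fgl1 0.026, Srebf2 −0.0091, Saa1 1.14, Alb −0.11 and Cela1 0.032. With the block they were Fgl1 0.45, Mt2 0.66, Hspb8 0.017, Nr1h3 −0.0011, Arntl −0.053, Saa1 1.80, Alb −0.11 and Hba-a1 0.028. With immediate early genes they were Gdf15 −0.032, Edem1 −0.020, S100a8 −0.30, Cd4 −0.0060, Hba-a1 1.12 and Cela1 0.013, and with Kupffer markers Ddah1 0.0060 and Hba-a1 0.52. Nr1h3 was −0.028 with median-ratio scaling, −0.033 for 4 against 4, −0.029 for 3 against 3, −0.020 with quantile normalization, −0.018 against the other 11 and −0.0090 with Dbp. Dbp was 0.047 for 3 against 3 and 0.0035 against the other 11. Hba-a1 was 0.042 for the slope and 0.071 against the other 11. Within genotype Saa1 was 0.20, Alb −0.10 and Cela1 0.10, with array weights Cela1 was 0.050, and with median-ratio scaling Alb was −0.0035. With 1 library left out Nr1h3 ranged from −0.032 to 0.076, Dbp from −0.78 to 0.048, Saa1 from −2.03 to 0.33, Pck1 from −0.70 to 0.044, Alb from −0.047 to 0.15, Hba-a1 from −0.43 to 0.063 and Cela1 from −0.12 to 0.069. The causes were not tested, and depth is unknown.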

Other observations

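Over all 16 livers 89 genes had a slope on log2 Fasn past the threshold (limma, adjusted p), all upward, 8 of them among the 9 genes of the comparison. The genes named here were chosen after their values were seen. Aqp8, a water channel, was at 202 ± 81.4 FPKM in the high and 81.0 ± 14.1 in the low livers (SD, n = 5 each), with a slope of 0.61 per doubling of Fasn (adjusted p = 0.00235). The pentose phosphate pathway held G6pdx, its first enzyme, at 3.81 ± 1.04 against 1.78 ± 0.577 FPKM (adjusted p = 0.0103), and Tkt, transketolase, at 60.1 ± 8.93 against 44.0 ± 3.74 FPKM (adjusted p = 0.00804). Eno1, a glycolytic enolase, was at 296 ± 48.1 against 221 ± 17.3 FPKM (adjusted p = 0.00804). Acsl5, which activates long-chain fatty acids, was at 162 ± 26.7 against 100.1 ± 16.1 FPKM (adjusted p = 0.0187), and Pemt, which makes phosphatidylcholine, at 344 ± 28.4 against 278 ± 27.8 FPKM (adjusted p = 0.0274). None of these 6 passed the threshold between the groups of 5.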
